A study of Mus musculus with 6 samples.

Results

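The 35 genes described here are a curated group of mouse hypoxia and glycolysis genes, measured in spheres grown from mammary tumors. They were chosen by name from the known pathway, with earlier results of these data known, and comprise 16 glycolytic enzymes, 18 other targets of the hypoxia-inducible factors (HIF), and Hif1a, the gene of an oxygen-regulated HIF subunit. All 35 had at least 1 probe with a matching RefSeq accession, 59 probes in total, and all 35 were among the 15838 genes tested, out of 20648 genes that could be named on the array. Spheres from FRS2beta knockout mice were compared with spheres from mice heterozygous for FRS2beta (hetero), on 3 arrays per genotype. FRS2beta, the product of Frs3, is an adaptor that docks on receptor tyrosine kinases. Both genotypes were grown in the same sphere medium, DMEM/F12 with B27, 20 ng/mL EGF, 20 ng/mL bFGF and 2 mg/mL heparin. Strain, age, tumor model and oxygen level are not given in the sources used here, and no wild-type spheres are part of the comparison. The labels do not say whether the replicates are separate animals or cultures, and if they are not, the p-values reflect technical variation alone.

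Glycolysis splits glucose into pyruvate through a chain of cytosolic enzymes, and lactate dehydrogenase and a lactate exporter let the chain run without respiration. When oxygen is short, the prolyl hydroxylases of the Egln family no longer mark HIF alpha subunits for destruction by the von Hippel-Lindau protein, and HIF raises the transcription of most glycolytic genes and of genes for vessel growth, mitophagy and collagen hydroxylation. Solid tumors, mammary tumors among them, and the inside of cell clusters are known sites of this response.

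Signals are given as scaled log2 signals, the log2 processed signal of a probe minus the 75th percentile of its array, so a value of 0 is the 75th percentile. Every change is thus a change against the rest of the array. The 75th percentile itself was 465 to 487 on the knockout arrays and 404 to 416 on the hetero arrays. Of all genes tested, 60.4% passed a limma adjusted p of 0.05, with 27.8% higher and 32.6% lower in knockout spheres, and a median log2 fold change of -0.03. Scaling to 7 spike-in controls, RNAs added in known amounts, in place of the 75th percentile added 0.42 to every log2 fold change, which turned the split of all genes to 11471 higher and 1267 lower, against 4403 higher and 5160 lower. Members whose direction rests on this choice are named below. The single Frs3 probe had scaled log2 signals of -7.88, -7.95 and -7.36 in knockout spheres and -7.30, -4.65 and -6.01 in hetero spheres. It was well above background on 0 of 3 knockout arrays and 1 of 3 hetero arrays, so the targeted gene does not check the labels.

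Knockout spheres carried less RNA of most of these genes relative to the rest of the array: 29 of 35 fell, 3 rose and 3 did not pass, against 32.6% of all genes lower and 27.8% higher. In bulk samples, fewer cells of a type and less RNA per cell cannot be told apart. The median log2 fold change of the 35 was -0.35, against -0.03 over all genes, and the median size of the change was 0.37 against 0.22. The knockout and hetero arrays did not overlap for 33 of the 35, against 68.9% of all genes. Most changes were small, with 3 falls of at least 2-fold (Adm, Pdk1 and Ndrg1) and 0 such rises, where 3.52% of all genes fell and 6.59% rose by that much. In 17 alternative settings, 12 of the 29 falls and 2 of the 3 rises (Pfkfb4 and Vegfa) passed every time, while 15 of the other 17 falls changed sign in at least 1, mostly with spike-in scaling.

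**Figure D1:**
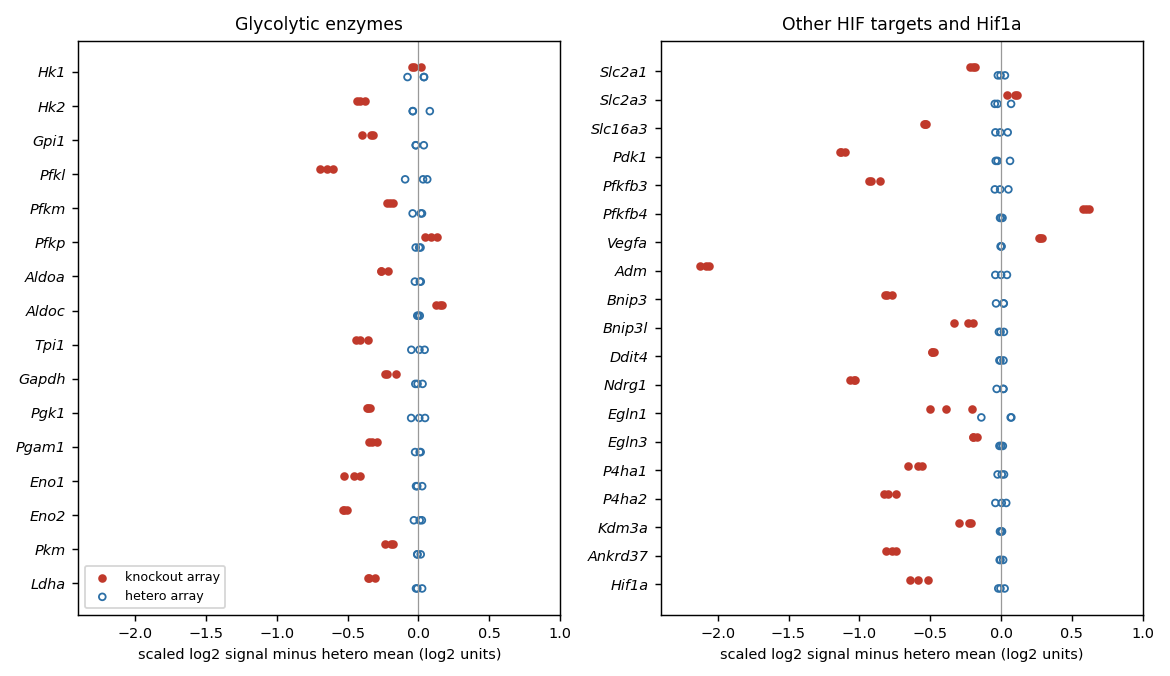
Scaled log2 signal of each gene on each array minus its hetero mean (log2 units, horizontal axis), for 16 glycolytic enzymes (left panel) and 18 other HIF targets with Hif1a (right panel). Filled red points are the 3 knockout arrays, open blue points the 3 hetero arrays. Adm lies farthest to the left, at a difference of -2.09, and Pfkfb4 farthest to the right, at 0.60; with spike-in scaling all points of the knockout arrays would move right by 0.42.

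Among the glycolytic enzymes, 13 of 16 fell, 1 rose and 2 did not pass, with a median log2 fold change of -0.33; with spike-in scaling 2 of the 16 fell and 8 rose, with a median of 0.09. The falls covered every step from glucose phosphorylation to lactate. Log2 fold changes of the 16 ran from -0.65 (Pfkl) to 0.15 (Aldoc), narrower than those of the other HIF targets.

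Hexokinase, which traps glucose in the cell as its phosphate, is represented by Hk1 and Hk2. Hk1, the broadly expressed form, had scaled log2 signals of 4.40, 4.45 and 4.38 in knockout spheres and 4.47, 4.35 and 4.47 in hetero spheres. These overlapped, and the log2 fold change was -0.02 with a 95% interval of -0.13 to 0.09 (limma adjusted p = 0.707); with spike-in scaling it was 0.40. Hk2, the form known to be induced by HIF and in tumors, had 1.17, 1.14 and 1.12 in knockout spheres and 1.51, 1.63 and 1.51 in hetero spheres. Its 3 knockout values lay below all hetero values, and it fell 1.33-fold (adjusted p = 0.000567), a difference that was 0.01 on the log2 scale with spike-in scaling. Gpi1, the isomerase of the next step, fell by 0.35 ± 0.03 on the log2 scale (SE, n = 3 each), and had 0.07 with spike-in scaling.

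Phosphofructokinase commits sugar to glycolysis and is built from liver-type (Pfkl), muscle-type (Pfkm) and platelet-type (Pfkp) subunits. Pfkl had scaled log2 signals of 2.66, 2.56 and 2.62 in knockout spheres and 3.29, 3.32 and 3.16 in hetero spheres. The groups were far apart, and the 1.57-fold fall (adjusted p = 0.000208) was the largest of the enzymes and kept its call in all 17 alternative settings. Pfkm fell by 0.20 ± 0.03 (adjusted p = 0.00178) and had 0.22 with spike-in scaling. Pfkp had 2.33, 2.28 and 2.24 in knockout spheres and 2.18, 2.21 and 2.20 in hetero spheres. Its knockout values were just above the hetero values, with a log2 fold change of 0.09 that missed the threshold (adjusted p = 0.0511) and was called in 5 of the 17 settings.

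Aldolase splits the sugar into triose phosphates, and Aldoa is its main form outside liver and brain. Aldoa had scaled log2 signals of 8.84, 8.79 and 8.79 in knockout spheres and 9.03, 9.07 and 9.06 in hetero spheres. The knockout values were lower on every array, a log2 fold change of -0.25 ± 0.03 (adjusted p = 0.000586). It was -0.02 with quantile scaling (adjusted p = 0.605). With spike-in scaling Aldoa was called higher, at 0.17 (adjusted p = 0.00299). Aldoc, the brain-type aldolase, was the single enzyme gene that rose, by 0.15 ± 0.02 (adjusted p = 0.00236), and it missed the threshold with median scaling (adjusted p = 0.0546). Tpi1, which interconverts the trioses, fell by 0.40 ± 0.04, against 0.01 with spike-in scaling.

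The enzymes of the following steps also fell, by differing amounts. Gapdh, which oxidizes the triose and often serves as a control gene, had scaled log2 signals of 8.86, 8.80 and 8.79 in knockout spheres and 9.02, 9.003 and 9.05 in hetero spheres. The groups did not overlap and the log2 fold change was -0.21 ± 0.03 (adjusted p = 0.00233), but it was 0.02 with quantile scaling (adjusted p = 0.314). With spike-in scaling Gapdh was called higher, at 0.21 (adjusted p = 0.00183). Pgk1, the first ATP-making enzyme, fell by 0.35 ± 0.03 and Pgam1, the mutase that follows, by 0.32 ± 0.03, against 0.06 and 0.09 with spike-in scaling. The enolase genes had larger falls. Eno1, the ubiquitous enolase, had 7.51, 7.47 and 7.39 in knockout spheres and 7.91, 7.95 and 7.91 in hetero spheres, a 1.38-fold fall (adjusted p = 0.000194) that missed the threshold with spike-in scaling (log2 fold change -0.05). Eno2, the neuronal form that HIF can induce elsewhere, had 3.64, 3.65 and 3.67 in knockout spheres and 4.14, 4.18 and 4.20 in hetero spheres. It fell 1.44-fold (adjusted p = 2.75e-05) and was called in all 17 alternative settings.

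Pyruvate kinase and lactate dehydrogenase end the chain. Pkm fell by 0.21 ± 0.02 (adjusted p = 0.00112), and its log2 fold change was -0.01 with quantile scaling (adjusted p = 0.75). With spike-in scaling Pkm was called higher, at 0.21 (adjusted p = 0.00172). The fall also lost its call with median scaling (adjusted p = 0.050). Ldha, which turns pyruvate to lactate, had scaled log2 signals of 8.18, 8.14 and 8.14 in knockout spheres and 8.48, 8.52 and 8.47 in hetero spheres. The knockout values were lower on every array, by a log2 fold change of -0.34 ± 0.03 (adjusted p = 0.000165), against -0.06 with quantile scaling (adjusted p = 0.0603) and 0.08 with spike-in scaling.

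Many enzyme probes are very bright, and very bright probes as a whole ran lower in knockout spheres. Among the 246 genes with a mean scaled log2 signal of at least 7, 80.9% had a log2 fold change below 0 and the median was -0.22, against -0.03 over all genes. Of the 16 glycolytic enzymes, 8 are in that range (Gpi1, Aldoa, Gapdh, Pgk1, Pgam1, Eno1, Pkm and Ldha), and 0 of the 18 other HIF targets are. With quantile scaling the median of these 246 genes was 0.02, that of the 16 enzymes -0.12, and 9 of the 16 fell while 2 rose. Brightness here is a property of probes and does not rank the RNA levels of genes.

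**Figure D2:**
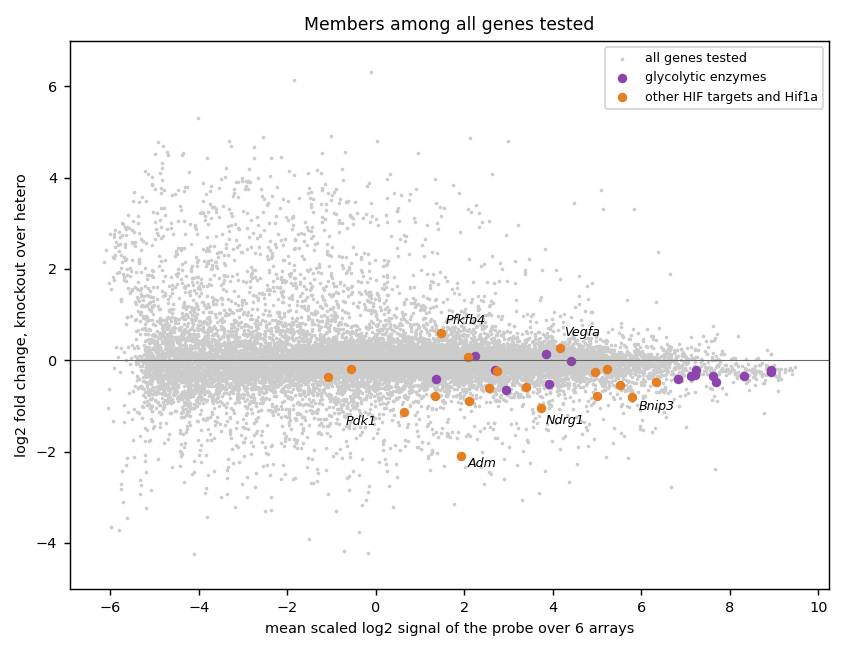
Log2 fold change of knockout over hetero (vertical axis) against the mean scaled log2 signal of the probe over 6 arrays (horizontal axis) for 15838 genes in grey, the 16 glycolytic enzymes in purple and the 18 other HIF targets with Hif1a in orange. The brightest grey points, above a signal of 7, lie mostly below 0 (median -0.22), where 8 of the enzymes also lie; Adm is the lowest coloured point, at -2.09, within the spread of the grey points. With spike-in scaling all points would move up by 0.42.

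The other HIF targets fell in 15 of 18 genes and rose in 2, with 1 not passing, against 32.6% of all genes lower and 27.8% higher; their median log2 fold change was -0.51. With spike-in scaling 9 fell and 7 rose, with a median of -0.09. Log2 fold changes ran from -2.09 to 0.60, and 9 of the 15 falls and both rises were called in all 17 alternative settings.

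The transporters bring in glucose and export lactate. Slc2a1, the main glucose importer of proliferating cells, fell by 0.20 ± 0.02 (adjusted p = 0.000998) and had 0.22 with spike-in scaling. The second glucose importer, Slc2a3, had scaled log2 signals of 2.13, 2.15 and 2.08 in knockout spheres and 2.11, 1.99 and 2.01 in hetero spheres. These overlapped (log2 fold change 0.08, 95% interval -0.02 to 0.18, adjusted p = 0.128), although without hetero replicate 1 the adjusted p was 0.0345. With spike-in scaling its log2 fold change was 0.50 and passed (adjusted p = 0.000105). Slc16a3, the lactate exporter of glycolytic cells, had 5.25, 5.24 and 5.24 in knockout spheres and 5.83, 5.74 and 5.78 in hetero spheres, a 1.45-fold fall (adjusted p = 4.44e-05) that kept its call in all 17 settings.

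Regulators that steer glucose carbon went in opposite directions. Pdk1, the kinase that shuts pyruvate dehydrogenase and so keeps pyruvate out of mitochondria, had scaled log2 signals of 0.08, 0.06 and 0.05 in knockout spheres and 1.15, 1.25 and 1.16 in hetero spheres. It fell 2.18-fold (adjusted p = 5.86e-06). Pfkfb3, whose enzyme makes the bisphosphate that activates phosphofructokinase, had 1.63, 1.70 and 1.62 in knockout spheres and 2.61, 2.51 and 2.55 in hetero spheres, a 1.87-fold fall (adjusted p = 1.68e-05; log2 fold change -0.90, or -0.41 with its probes averaged). Pfkfb4, a paralog of Pfkfb3, rose 1.52-fold (adjusted p = 1.08e-05). Its values were 1.76, 1.80 and 1.78 in knockout spheres and 1.17, 1.17 and 1.19 in hetero spheres, so the spread within either genotype was a small part of the difference. All 3 genes kept call and direction in all 17 settings.

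Secreted factors also split. Adm encodes adrenomedullin, a vasodilator peptide and one of the most responsive HIF targets. Its scaled log2 signals were 0.91, 0.88 and 0.85 in knockout spheres and 2.97, 3.01 and 2.93 in hetero spheres. The 4.26-fold fall (log2 fold change -2.09 ± 0.03, adjusted p = 5.73e-07) was the largest change of the 35 genes, and its log2 fold change stayed between -2.11 and -1.67 in the 17 settings. Vegfa, the main angiogenic growth factor, went the other way. It had 4.29, 4.28 and 4.31 in knockout spheres and 4.01, 4.02 and 4.02 in hetero spheres, a 1.21-fold rise (adjusted p = 0.000136), and its log2 fold change ran from 0.27 to 0.69 in the settings.

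Genes of mitophagy and stress all fell. Bnip3, a receptor that marks mitochondria for autophagy, had scaled log2 signals of 5.42, 5.38 and 5.39 in knockout spheres and 6.21, 6.21 and 6.16 in hetero spheres, a 1.74-fold fall (adjusted p = 8.72e-06). Its paralog Bnip3l fell by 0.25 ± 0.04 on the log2 scale (adjusted p = 0.00322) and had 0.16 with spike-in scaling. Ddit4, an inhibitor of mTOR signalling, fell by 0.48 ± 0.02 (adjusted p = 1.89e-05), a call that was lost with spike-in scaling (log2 fold change -0.06). Ndrg1, a stress-responsive gene raised by hypoxia and iron shortage, had 3.22, 3.19 and 3.23 in knockout spheres and 4.27, 4.27 and 4.23 in hetero spheres. The groups were far apart and the fall was 2.07-fold (adjusted p = 2.4e-06).

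Oxygen-dependent dioxygenases that HIF induces fell as well. Egln1, the chief hydroxylase that turns HIF off, had scaled log2 signals of -1.11, -1.29 and -1.40 in knockout spheres and -1.04, -0.83 and -0.84 in hetero spheres. The groups came close, and the log2 fold change of -0.37 ± 0.10 (adjusted p = 0.0222) lost its call without knockout replicate 2 or 3, without hetero replicate 2 or 3 (adjusted p 0.058 to 0.0677) and in a fit that blocks on the replicate number (adjusted p = 0.0826). In a fit on the arrays of slide row 1 the call was also lost (log2 fold change -0.26, adjusted p = 0.135). With spike-in scaling the log2 fold change was 0.05. Egln3 fell by 0.19 ± 0.02, a call lost with median scaling (adjusted p = 0.0728). With spike-in scaling Egln3 was called higher, at 0.23 (adjusted p = 0.000237). The collagen prolyl hydroxylase subunits P4ha1 and P4ha2 fell 1.52-fold and 1.73-fold (adjusted p = 5.43e-05 and 1.98e-05), P4ha2 with 4.57, 4.65 and 4.60 in knockout spheres and 5.43, 5.40 and 5.35 in hetero spheres. Kdm3a, a histone demethylase, fell by 0.24 ± 0.03 and had 0.17 with spike-in scaling. Ankrd37, a small ankyrin-repeat protein gene induced by HIF, had 0.90, 0.97 and 0.94 in knockout spheres and 1.70, 1.73 and 1.71 in hetero spheres, a 1.71-fold fall (adjusted p = 7.63e-06).

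**Figure D3:**
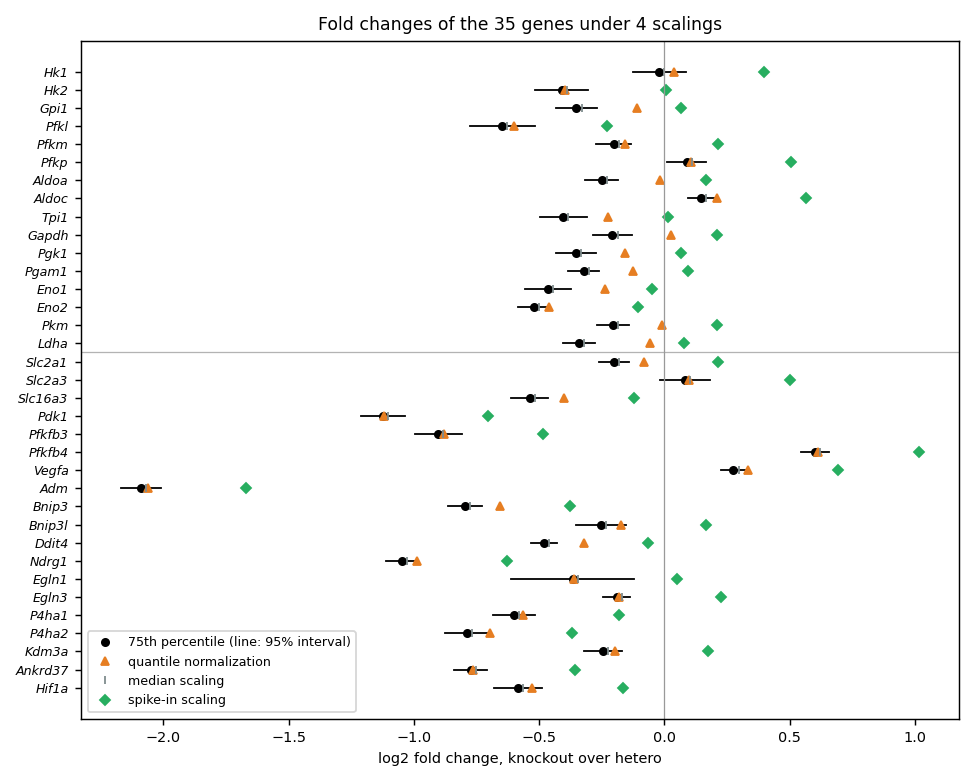
Log2 fold change of knockout over hetero (horizontal axis) for the 35 genes, glycolytic enzymes above the grey line and other HIF targets with Hif1a below it. Black points with 95% intervals use the 75th percentile; orange triangles quantile scaling, grey ticks median scaling and green diamonds spike-in scaling. Adm, Pdk1, Ndrg1, Pfkfb3, Bnip3, P4ha2 and Ankrd37 lie below 0 and Pfkfb4 and Vegfa above 0 in all 4, while Gapdh is at -0.21, 0.02 and 0.21 with the 75th percentile, quantile and spike-in scaling.

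HIF binds DNA at a short core, ACGTG or GCGTG. In windows from 250 bases before to 50 after the start sites that RefSeq gives on GRCm38.p6, found for 32 of the 35 genes, ACGTG stood on either strand in 22 of the 32 (68.8%), against 26.95% of 12540 tested genes with such a window. The core GCGTG also stood in 22 of 32, against 50.6% of these tested genes. By group, ACGTG was in 10 of 16 glycolytic enzymes, in 11 of 15 other HIF targets and in Hif1a. The genes were picked as HIF targets, so a high share is a property of the choice, and a match is not a bound site. The 6 windows below show the largest fall (Adm), 3 falls that kept their call in all 17 settings (Ankrd37, Bnip3 and P4ha2), the enzyme with the most matches (Ldha) and the largest rise (Pfkfb4), in 5′ to 3′ direction of the gene with ACGTG or its reverse complement in capitals.
Adm, chr7:110627407-110627706, plus strand: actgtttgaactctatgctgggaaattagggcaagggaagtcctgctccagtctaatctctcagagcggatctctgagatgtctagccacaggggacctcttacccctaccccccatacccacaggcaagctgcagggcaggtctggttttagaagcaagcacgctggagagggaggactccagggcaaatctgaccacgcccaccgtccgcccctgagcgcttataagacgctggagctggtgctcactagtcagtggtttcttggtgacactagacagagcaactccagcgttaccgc
Ankrd37, chr8:45999801-46000100, minus strand: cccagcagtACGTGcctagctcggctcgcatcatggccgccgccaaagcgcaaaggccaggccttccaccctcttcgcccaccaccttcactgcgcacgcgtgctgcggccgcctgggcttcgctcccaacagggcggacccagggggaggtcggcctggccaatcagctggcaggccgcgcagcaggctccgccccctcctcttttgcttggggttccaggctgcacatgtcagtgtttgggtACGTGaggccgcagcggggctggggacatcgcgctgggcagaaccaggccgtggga
Bnip3, chr7:138909457-138909756, minus strand: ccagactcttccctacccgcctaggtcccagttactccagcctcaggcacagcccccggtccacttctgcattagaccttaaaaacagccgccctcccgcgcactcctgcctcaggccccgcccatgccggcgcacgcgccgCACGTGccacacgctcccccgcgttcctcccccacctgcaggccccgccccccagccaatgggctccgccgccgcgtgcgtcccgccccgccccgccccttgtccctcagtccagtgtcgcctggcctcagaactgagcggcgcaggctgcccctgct
P4ha2, chr11:54100674-54100973, plus strand: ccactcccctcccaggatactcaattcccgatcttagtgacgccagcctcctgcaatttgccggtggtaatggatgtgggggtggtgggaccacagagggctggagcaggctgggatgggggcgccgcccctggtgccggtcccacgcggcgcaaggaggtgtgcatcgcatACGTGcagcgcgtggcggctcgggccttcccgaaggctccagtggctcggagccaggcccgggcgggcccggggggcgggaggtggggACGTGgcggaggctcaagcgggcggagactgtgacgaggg
Ldha, chr7:46845554-46845853, plus strand: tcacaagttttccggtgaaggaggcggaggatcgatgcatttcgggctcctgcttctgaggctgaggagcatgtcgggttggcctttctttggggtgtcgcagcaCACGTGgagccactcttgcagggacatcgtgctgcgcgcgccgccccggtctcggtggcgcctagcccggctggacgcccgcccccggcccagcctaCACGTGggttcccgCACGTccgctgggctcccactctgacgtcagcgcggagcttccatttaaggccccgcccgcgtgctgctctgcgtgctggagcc
Pfkfb4, chr9:108991652-108991951, plus strand: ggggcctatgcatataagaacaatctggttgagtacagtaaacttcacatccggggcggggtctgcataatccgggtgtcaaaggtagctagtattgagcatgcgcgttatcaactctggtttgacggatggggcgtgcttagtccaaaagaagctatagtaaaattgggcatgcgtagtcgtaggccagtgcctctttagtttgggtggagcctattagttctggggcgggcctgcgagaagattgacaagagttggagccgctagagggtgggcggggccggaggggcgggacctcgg
Ldha holds 5 matches and Ankrd37, Bnip3 and P4ha2 hold 2 each, counting both strands of the palindrome CACGTG. The 2 matches of Bnip3 are 1 such palindrome, while those of Ankrd37 and P4ha2 stand apart. Neither Adm nor Pfkfb4, the extremes of the 35 genes, has ACGTG in its window, while GCGTG stands in the Adm window at 2 places and in the Pfkfb4 window at 1. Of the other falls called in all 17 settings, Pfkl, Eno2 and Pdk1 have no ACGTG in any window. Slc16a3, Pfkfb3, P4ha1 and Hif1a have it, and no window was found for Ndrg1.

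HIF subunit genes moved apart. Hif1a had scaled log2 signals of 3.09, 3.15 and 3.03 in knockout spheres and 3.67, 3.70 and 3.65 in hetero spheres, a 1.5-fold fall (adjusted p = 9.82e-05). Epas1, the gene of the related subunit HIF-2alpha, had 4.4993, 4.56 and 4.57 in knockout spheres and 3.95, 4.05 and 3.92 in hetero spheres, a 1.48-fold rise (adjusted p = 0.000171). Neither pair of groups overlapped, and both calls stood in all 17 settings. Arnt, the common partner of both, fell by 0.42 ± 0.03 on the log2 scale, and Vhl and the hydroxylase gene Egln2 fell by 0.30 ± 0.03 and 0.19 ± 0.03. With spike-in scaling Arnt was at -0.0037 and missed the threshold, and Vhl and Egln2 were called higher, at 0.12 and 0.23. The call of Egln2 was also lost with quantile scaling (adjusted p = 0.0661) and median scaling (adjusted p = 0.12). Hif3a, whose product includes inhibitory forms, had -1.87, -1.90 and -1.95 in knockout spheres and -0.68, -0.60 and -0.10 in hetero spheres, a 2.73-fold fall (adjusted p = 0.000758) with hetero replicate 3 above the other two. The asparagine hydroxylase gene Hif1an and the coactivator gene Ep300 did not pass (log2 fold changes 0.04 and -0.01, adjusted p = 0.434 and 0.864), but with spike-in scaling both were called higher, at 0.46 and 0.41. Crebbp, the second coactivator gene, fell by 0.08 ± 0.02 (adjusted p = 0.0297), a call that was lost without any one of the 6 replicates (adjusted p 0.0523 to 0.0907) and changed sign with spike-in scaling. HIF is controlled mainly through protein stability, which arrays do not measure.

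Ratios of related genes within an array do not depend on the scaling factor of that array, and 13 pairs were compared. The level of such a ratio sets different probes against each other and has no meaning, while its change between genotypes has. With 3 arrays against 3, the smallest p that an exact two-sided permutation test can give is 0.1. It was reached by 11 of the 13 pairs (0.118 after Benjamini-Hochberg adjustment over 13), so no pair can pass the threshold by this test. For Pfkfb4 over Pfkfb3 the log2 ratio was 0.12, 0.10 and 0.16 in knockout spheres and -1.44, -1.34 and -1.36 in hetero spheres, a 2.84-fold shift. That for Epas1 over Hif1a was 1.41, 1.41 and 1.54 in knockout spheres and 0.28, 0.35 and 0.27 in hetero spheres, a 2.22-fold shift. In both pairs the knockout values were all far above the hetero values.

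Among phosphofructokinase subunits, Pfkp over Pfkl shifted 1.67-fold and Pfkm over Pfkl 1.36-fold towards Pfkp and Pfkm in knockout spheres. Aldoc over Aldoa shifted 1.32-fold up, Hk2 over Hk1 1.31-fold down and Bnip3 over Bnip3l 1.46-fold down. Ldhb, which favours the use of lactate, fell more than Ldha, so Ldha over Ldhb was 1.26-fold higher. With quantile scaling, which is not a single factor per array, the log2 shift was 0.23 in place of 0.40 for Aldoc over Aldoa, 0.60 in place of 0.34 for Ldha over Ldhb, 0.18 in place of 0.28 for Slc2a3 over Slc2a1, -0.08 in place of -0.22 for Slc16a3 over Slc16a1 and -0.22 in place of -0.06 for Eno2 over Eno1. Eno2 over Eno1 and Egln3 over Egln1 overlapped between genotypes (exact permutation p = 0.3 and 0.2). When the probes of a gene were averaged, the log2 shift was 1.01 in place of 1.5 for Pfkfb4 over Pfkfb3, 0.96 in place of 1.15 for Epas1 over Hif1a and 0.61 in place of 0.74 for Pfkp over Pfkl.

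**Figure D4:**
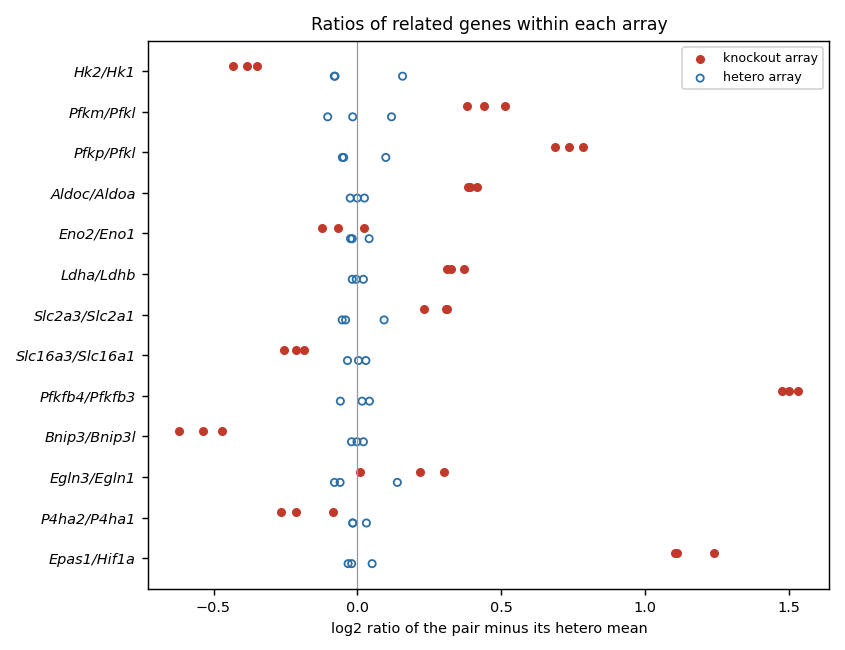
Log2 ratio of the signals of 2 related genes on each array minus its hetero mean (horizontal axis) for 13 pairs. Filled red points are the 3 knockout arrays and open blue points the 3 hetero arrays. Pfkfb4/Pfkfb3 and Epas1/Hif1a lie farthest to the right, at shifts of 1.5 and 1.15, and Bnip3/Bnip3l farthest to the left, at -0.54.

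Other genes of the pathway, chosen by name, rose and fell in shares above those of all genes (27.8% higher and 32.6% lower). In either direction, 77.3% of the glycolysis and pyruvate list and 87.0% of the hypoxia list passed, against 60.4% of all genes. Of 22 tested genes of glycolysis and pyruvate use, 8 rose, 9 fell and 5 did not pass, with a median log2 fold change of -0.08 (0.34 with spike-in scaling). Of 23 tested genes that hypoxia can induce, 9 rose, 11 fell and 3 did not pass, with a median of -0.23 (0.19 with spike-in scaling). Large rises were those of the clock-linked repressor gene Bhlhe41 (4.09-fold), the gluconeogenic enzyme gene Fbp1 (3.27-fold), the matricellular gene Ccn1 (2.42-fold), the insulin-responsive glucose transporter gene Slc2a4 (2.14-fold) and Bpgm (1.82-fold), whose enzyme makes a glycolytic side product. Edn1, a vasoconstrictor peptide gene, was above background on 3 knockout arrays and 2 of 3 hetero arrays, and rose 4.46-fold, against 1.62-fold with normexp background correction. Bhlhe41 had scaled log2 signals of 0.42, 0.39 and 0.41 in knockout spheres and -1.68, -1.60 and -1.60 in hetero spheres. Fbp1 had -0.92, -0.75 and -0.88 in knockout spheres and -2.33, -2.78 and -2.57 in hetero spheres. For both genes the groups lay far apart.

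Large falls were those of the hexokinase gene Hk3 (3.63-fold), the lipoprotein receptor gene Vldlr (1.84-fold), the lysyl hydroxylase gene Plod1 (1.64-fold), Ldhb (1.6-fold) and the glycogen synthase gene Gys1 (1.5-fold). Hk3, the hexokinase known from myeloid cells, had scaled log2 signals of -3.30, -3.37 and -3.19 in knockout spheres and -1.21, -1.62 and -1.46 in hetero spheres. Adjusted p of the genes named here was at most 0.000142, for Fbp1, and each kept its direction in all 17 alternative settings, except that Edn1 was not among the genes tested with a filter on all 6 arrays. Sizes depended on the background correction for the dim genes, and with normexp Hk3 fell 2.14-fold and Fbp1 rose 2.01-fold.

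Several members were measured by more than 1 probe. Of all 35427 probes kept, 47% passed an adjusted p of 0.05. For Gapdh all 7 probes fell, by 0.18 to 0.29 on the log2 scale, and the 3 probes of Ldha (0.33 to 0.34), of Gpi1 (0.34 to 0.38) and of Bnip3 (0.75 to 0.80) fell by nearly equal amounts. Both Vegfa probes rose, by 0.28 and 0.39. The probes of 2 genes parted in sign. The brightest Pfkfb3 probe had a log2 fold change of -0.90 ± 0.04, while a dim second probe had 0.08 ± 0.22 (adjusted p = 0.781). For Pfkp the probes had 0.09 ± 0.03 and -0.16 ± 0.07, neither past the threshold (adjusted p = 0.089 and 0.112). The Egln3 probes had -0.19 ± 0.03 and -0.18 ± 0.06, and only the first passed (adjusted p = 0.00304 and 0.0578). Pfkfb4 rests on 1 kept probe, as its other probe was well above background on 0 arrays. A single probe on the array stands for 21 of the 35 genes, Adm, Pdk1, Ndrg1 and Hif1a among them. Whether Gapdh, Aldoa and other genes with processed pseudogenes share signal with those copies was not tested.

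**Figure D5:**
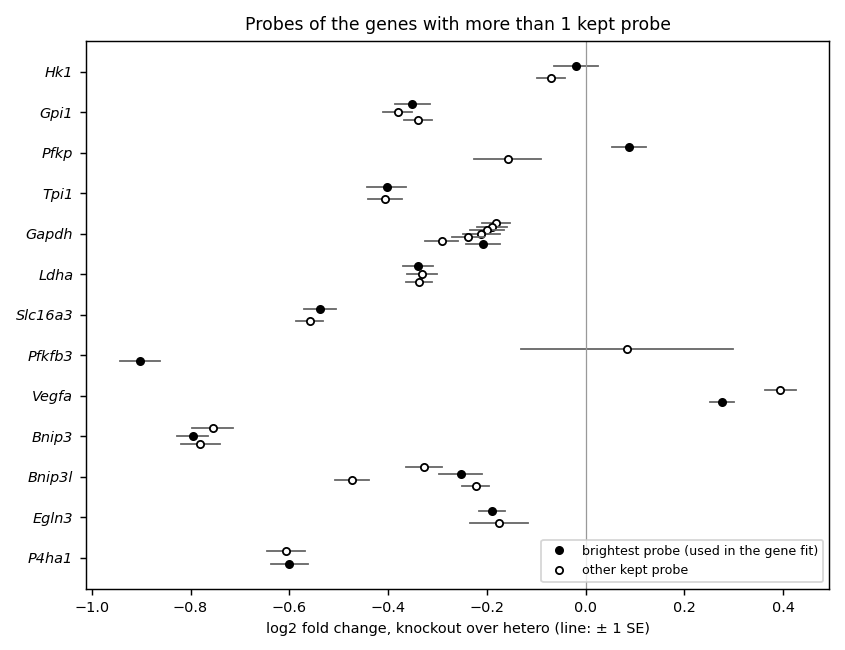
Log2 fold change of knockout over hetero with 1 SE to either side (horizontal axis) for every kept probe of the 13 genes with more than 1 such probe. Filled points mark the brightest probe, which stands for the gene, and open points the others. Probes of Pfkfb3 (-0.90 and 0.08) and Pfkp (0.09 and -0.16) lie on both sides of 0, and those of Bnip3l spread from -0.47 to -0.22; with spike-in scaling all points would move right by 0.42.

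Markers of cell types also differed between the genotypes, in both directions. All 10 epithelial markers rose by at least 2-fold (median log2 fold change 3.32), with a summed scaled signal of 182 to 185 on the knockout arrays and 20.8 to 21.0 on the hetero arrays, in units of the 75th percentile. All 8 tested macrophage markers fell (median -1.73; 7 fell with spike-in scaling, median -1.32), with sums of 7.53 to 7.62 on the knockout arrays and 19.7 to 20.1 on the hetero arrays. Of 7 fibroblast markers 5 fell and 1 rose (median -0.55; -0.27 with quantile scaling, and -0.13 with spike-in scaling, where 4 fell and 2 rose), with sums of 1083 to 1139 on the knockout arrays and 1331 to 1512 on the hetero arrays. The fibroblast sums came mostly from very bright collagen markers. The brightest had mean scaled log2 signals of 9.01 in knockout and 9.22 in hetero spheres and did not pass (limma adjusted p = 0.179). On the hetero arrays it had 9.35, 8.96 and 9.34. Of 5 endothelial markers 3 fell and 0 rose (median -0.19), with sums of 15.9 to 17.1 on the knockout arrays and 21.4 to 22.2 on the hetero arrays. These sums came mostly from 1 marker, with mean scaled log2 signals of 3.89 in knockout and 4.32 in hetero spheres. The next brightest endothelial marker had 0.02 and -0.06. With spike-in scaling 0 endothelial markers fell, 3 rose and the median was 0.23. Each tested epithelial, macrophage and fibroblast marker was well above background on all 6 arrays. Some were dim, down to a scaled log2 signal of -4.30 for an epithelial marker in hetero spheres. A macrophage marker had -4.43, -3.98 and -4.07 in knockout spheres. The lowest signals above background were -5.86 to -5.20, depending on the array. Fewer markers of other types could be read: 1 of 3 adipocyte markers fell (0 fell and 2 rose with spike-in scaling), the 1 tested T cell marker fell, and the 1 tested erythroid marker did not pass. The part of these shifts in the changes of hypoxia and glycolysis genes was not tested.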

How the data were processed

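Total RNA of each sphere sample was labelled with Cy3 and hybridised to a 1-colour Agilent array, per the labels. The submitters' processing notes name Agilent Feature Extraction 10.7.3.1 as the image software. The deposited spot intensities are processed signals on a linear scale, with background and spatial trend already removed by that software, as the file headers record. They were not scaled between arrays. A deposited series table of 46598 probes equals these intensities divided by a constant per array (to within 1% for 100% of probes with a single spot) and served as an alternative. Its scale is thus linear, it is not centred by gene, and its column medians were 0.159 to 0.163 for knockout and 0.159 to 0.169 for hetero arrays.

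Control spots and 102 to 129 outlier-flagged spots per array were left out. The 0 saturated spots limited nothing. Spots of a probe were averaged on the log2 scale. Of 55681 probes, 27 were lost to flags, and 27220 took a gene name from a RefSeq table of GRCm38.p6, matched by accession. The array design is on mm9, so no coordinate of a probe is given. The 75th percentile of each array was subtracted, probes well above background on at least 3 arrays were kept (35427), and the brightest kept probe stood for a gene. The test was limma's moderated linear model (version 3.58.1, R 4.3.3), with genotype as its only term, on 15838 genes, using Benjamini-Hochberg adjustment and a threshold of 0.05. Probes of a gene were compared in the same fit over all kept probes. The precision is limited by 3 arrays per group.

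The members, their split, the pairs and the other lists were chosen with earlier results of these data known. The genes named were all 35 members, the HIF machinery list, and of the other pathway lists the 6 genes that rose most and the 6 that fell most, among those called with the brighter genotype well above background on each of 3 arrays; 1 of these is not reported here. The files give a median pixel signal per spot, which replaced the planned mean signal in the normexp background correction (offset 50). Other alternatives were quantile, median and spike-in scaling, no filter, a filter on all 6 arrays, averaged probes, the deposited series table, replicate number as a block and leaving out each array; slide row was added after seeing the data, as a block and as a fit within row 1. All arrays were on 1 slide, from 1 scan. Each slide column held a single genotype, so that slide column and genotype cannot be told apart. Data were also simulated for knockout against hetero over 15838 genes, with 50 genes changed at each of 4 sizes. Log2 changes of 0.25 were recovered for 36.0% of genes, those of 0.5 for 66.0%, those of 1 for 86.0% and those of 2 for 96.0%. Of 152 calls, 10 were unchanged genes. In the real data 60.4% of genes passed, so the adjusted threshold was harder to reach in the simulation. Its recovery rates thus do not give the power of the real comparison.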

Additional observations from a re-analysis of the deposited data

How the results depend on the processing

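The scaling between arrays mattered most. With spike-in scaling, 8 glycolytic enzymes rose and 2 fell, 7 other HIF targets rose and 9 fell, and 11471 of all genes rose and 1267 fell. The median log2 fold changes that changed sign with it became 0.086 for glycolytic enzymes, 0.29 for the HIF machinery, 0.34 for other glycolysis and pyruvate genes, 0.19 for other hypoxia-induced genes, 0.23 for endothelial and 0.29 for adipocyte markers. The adipocyte median also changed sign within slide row 1 (0.068) and ran from -0.24 to 0.026 without single replicates. Single genes that changed sign with it, by construction because their fall was smaller than the added 0.42, were Hk1 (0.40), Hk2 (0.0082), Gpi1 (0.067), Pfkm (0.22), Aldoa (0.17), Tpi1 (0.014), Gapdh (0.21), Pgk1 (0.065), Pgam1 (0.095), Pkm (0.21), Ldha (0.078), Slc2a1 (0.22), Bnip3l (0.16), Egln1 (0.052), Egln3 (0.23), Kdm3a (0.17), Vhl (0.12), Egln2 (0.23), Ep300 (0.41) and Crebbp (0.34). Among these, Hk1, Pfkm, Aldoa, Gapdh, Pgam1, Pkm, Slc2a1, Bnip3l, Egln3, Kdm3a, Vhl, Egln2, Ep300 and Crebbp passed the threshold as higher. With quantile scaling Hk1 (0.039) and Gapdh (0.025) changed sign. The number of glycolytic enzymes that rose was 2 with quantile scaling, normexp or a filter on all 6 arrays, and 0 with median scaling; without single replicates it was 1 to 2. Genes near 0 also changed sign: Hk1 with median scaling (0.00031) and within slide row 1 (0.014), Ep300 with median scaling (0.0091), Pfkp with averaged probes (-0.035), and, without single replicates, Hif1an (from -0.00040 to 0.074) and Ep300 (from -0.059 to 0.018). The causes were not tested.

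Same-numbered replicates did not deviate together (correlations of -0.12, -0.02 and -0.01 across genes). With so few arrays per genotype, these correlations cannot show whether the numbers pair the samples. Same-numbered arrays of the genotypes also lay in the same slide row. With replicate numbers as a block, 8511 of all genes passed in place of 9563, and 31 members in place of 32, Egln1 being lost. Over the 17 alternatives, 553 of 595 member results kept direction and side of the threshold. Both filter settings and both blocks leave the log2 fold change of a member as it is, and the deposited series table nearly so. That share is thus no measure of robustness. In at least 1 setting, 15 of the 29 falls changed sign, mostly with spike-in scaling.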
